A study of Mus musculus with 9 samples.

Results

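Pycard and 8 protein-coding genes named with it on mouse chromosome 7 (Slx1b, Gdpd3, Armc5, Kat8, Bckdk, Trim72, Prss36 and Tgfb1i1) were followed across 9 two-colour arrays of cerebellum RNA. Members were the array features annotated with 1 of these 9 symbols. The annotation used here held 8 such features for 6 of the 9 genes, out of 45220 features and 19087 named genes. It paired no feature with Trim72, Prss36 or Tgfb1i1, so their levels were not analysed here. The members were chosen by the difference between knockout and wild-type arrays, from the same values. That difference is therefore given below as a description with no test.

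The samples were SmoA1 mice, called a medulloblastoma strain in the labels, at postnatal day 20. There were 4 arrays of Pycard knockout SmoA1 cerebellum and 5 arrays of Pycard wild-type SmoA1 cerebellum, each labelled in Cy5. Both groups carry SmoA1, so the genotypes differ by Pycard as labelled. The Cy3 channel of every array held the same pooled RNA, from wild-type cerebella of day 16, which the labels do not say carries SmoA1. SmoA1 is known as an activated form of Smoothened, the receptor component that turns on Hedgehog signalling in cerebellar granule neuron precursors; the labels name neither its promoter nor the design of the Pycard allele. Whether the arrays stand for different animals is not said either, and a p-value then covers only variation among these 9 samples, possibly technical. Each value below is a log ratio of the sample over the pool, taken to be on the log2 scale, which the labels do not state and on which every fold change rests.

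Pycard encodes ASC, an adaptor with a pyrin domain and a caspase recruitment domain. ASC joins inflammasome sensors to caspase-1, which matures interleukin-1β and interleukin-18 and cleaves gasdermin D. In brain the adaptor is known mainly from microglia. The other genes share a stretch of chromosome with Pycard, not a pathway, and each has its own role, given where it is described.

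By the gene order of RefSeq assembly GRCm38.p6, Trim72 is the next protein-coding gene on one side of Pycard. Prss36 lies 2, Kat8 4 and Bckdk 5 protein-coding genes away on the other side. Armc5 lies 7 and Tgfb1i1 8 genes away on the Trim72 side, next to each other. Gdpd3 and Slx1b lie farther out, 68 and 72 protein-coding genes from Pycard on the Kat8 side. In this order the 2 members with the widest differences besides Pycard are thus the 2 farthest from it.

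The promoter windows of Pycard, Slx1b and Gdpd3 are shown because these 3 genes had the widest gaps between the genotypes. They come from RefSeq, build GRCm38.p6, and run from 250 bases before to 50 bases after the annotated start. Capitals mark matches on either strand to GGGCGG (a GC box), CCAAT or TATAAA.
Pycard, chr7:127993818-127994117, minus strand: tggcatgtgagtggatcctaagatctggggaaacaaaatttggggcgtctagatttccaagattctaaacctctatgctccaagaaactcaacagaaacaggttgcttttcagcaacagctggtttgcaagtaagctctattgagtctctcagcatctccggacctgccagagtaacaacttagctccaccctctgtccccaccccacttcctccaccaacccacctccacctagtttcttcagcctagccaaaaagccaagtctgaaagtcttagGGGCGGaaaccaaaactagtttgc
Slx1b, chr7:126695734-126696033, minus strand: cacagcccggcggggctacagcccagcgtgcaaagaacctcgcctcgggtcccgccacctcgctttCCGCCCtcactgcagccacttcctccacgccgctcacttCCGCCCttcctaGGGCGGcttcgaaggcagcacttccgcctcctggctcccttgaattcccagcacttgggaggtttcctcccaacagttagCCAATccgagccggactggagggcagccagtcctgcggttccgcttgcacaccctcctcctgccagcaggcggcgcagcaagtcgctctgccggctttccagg
Gdpd3, chr7:126766164-126766463, plus strand: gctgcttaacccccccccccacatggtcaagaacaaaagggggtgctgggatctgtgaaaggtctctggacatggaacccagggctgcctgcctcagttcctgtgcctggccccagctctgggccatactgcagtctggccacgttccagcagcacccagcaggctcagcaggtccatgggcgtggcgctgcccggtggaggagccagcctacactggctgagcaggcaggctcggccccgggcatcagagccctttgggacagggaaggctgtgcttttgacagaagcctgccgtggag
The Slx1b window held 22 CpG dinucleotides, 3 GC boxes and 1 CCAAT. The GC boxes and the CCAAT did not overlap each other. The Pycard window held 3 CpG and 1 GC box, and the Gdpd3 window 7 CpG and no match to these letters. The median over 32851 RefSeq windows of this length was 7 CpG. A GC box occurred in 35.7% of those windows, CCAAT in 37.4% and TATAAA in 13.6%. These matches describe the letters alone.

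Groups that do not overlap are those in which every knockout array lies above, or every one below, all wild-type arrays. That held for 5 of the 8 features, beside 1.68% of all 45220. At the level of gene means it held for 4 of the 6 genes, beside 2.14% of all named genes. Of these, 2 were higher in knockout (1.03% of all named genes) and 2 lower (1.12%). Since the members were chosen with this contrast known, nothing is read from these counts.

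Pycard was lower on every knockout array than on any wild-type array, in both of its features. Feature 39700 read -4.14, -3.20, -2.90 and -3.49 on knockout 1 to 4, against 1.02, 1.28, 0.99, 1.31 and 1.35 on wild-type 1 to 5. The groups were 3.89 apart at their nearest. Feature 33618 read -1.53, -1.66, -0.05 and -2.17 on knockout 1 to 4, against 0.78, 1.07, 0.45, 1.24 and 1.29 on wild-type 1 to 5. Here knockout 3 stood at the level of the day 16 pool and 0.50 below the lowest wild-type array. Both features carry the same RefSeq transcript in the annotation, and no source used here places them relative to the altered stretch.

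The mean of both features was -2.39 ± 0.64 (SD, n = 4) in knockout and 1.08 ± 0.26 (SD, n = 5) in wild-type. The difference of -3.47 (SE 0.29, 95% interval -4.14 to -2.81) makes Pycard 11.1-fold lower in knockout. The difference was -4.62 by feature 39700 and -2.32 by feature 33618. Feature 33618 minus feature 39700 averaged 2.08 ± 0.76 (SD, n = 4) in knockout and -0.22 ± 0.20 (SD, n = 5) in wild-type. Every wild-type array lay above the day 16 pool and every knockout array below it. Among the 19087 named genes the absolute Pycard difference ranked 1.

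**Figure D1:**
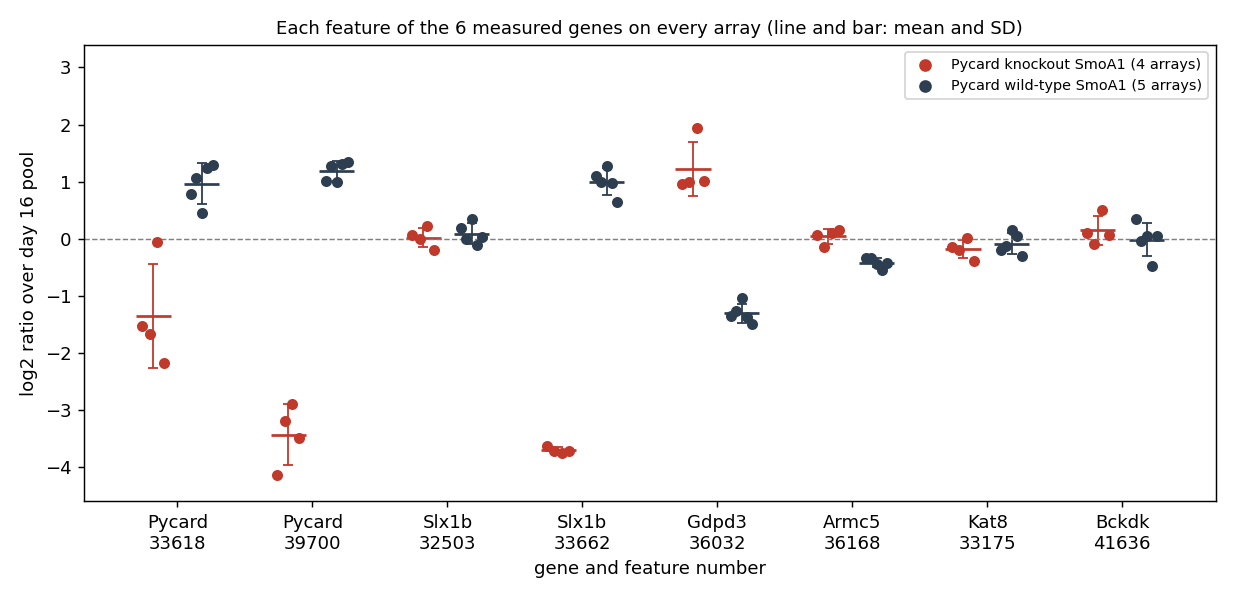
Log2 ratio over the day 16 pool (vertical axis) for each feature of the 6 measured genes (horizontal axis, gene and feature number), with 4 knockout arrays left of 5 wild-type arrays; the horizontal line is the mean and the bar the SD. Both Pycard features, Slx1b feature 33662, Gdpd3 and Armc5 have groups that do not overlap, whereas Slx1b feature 32503, Kat8 and Bckdk overlap.

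Slx1b encodes the catalytic subunit of a nuclease that, bound to SLX4, cuts branched DNA such as Holliday junctions. Its features went separate ways. Feature 33662, annotated to a cDNA clone, read -3.64, -3.73, -3.75 and -3.72 on knockout 1 to 4, against 1.10, 0.999, 1.28, 0.98 and 0.64 on wild-type 1 to 5. Its knockout mean was -3.71 ± 0.05 (SD, n = 4) and its wild-type mean 1.001 ± 0.23 (SD, n = 5), 26.2-fold lower in knockout. The gap between the groups was 4.28, wider than for either Pycard feature.

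Feature 32503, annotated to the RefSeq transcript of Slx1b, read 0.06, -0.01, 0.22 and -0.19 on knockout 1 to 4, against 0.20, -0.002, 0.34, -0.12 and 0.03 on wild-type 1 to 5. The groups overlapped, with a difference of -0.07 (95% interval -0.37 to 0.23). The average over both features, -1.84 ± 0.09 in knockout (SD, n = 4) and 0.54 ± 0.19 in wild-type (SD, n = 5), describes neither of them. Which transcript feature 33662 reports was not tested, and a lower Slx1b mRNA in knockout is not shown by feature 32503.

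Gdpd3, which encodes a glycerophosphodiester phosphodiesterase with lysophospholipase D activity, ran the opposite way to Pycard. It read 0.96, 0.996, 1.93 and 1.02 on knockout 1 to 4, against -1.35, -1.28, -1.04, -1.38 and -1.504 on wild-type 1 to 5. Its 1 feature put every knockout array above the pool and every wild-type array below it. The means were 1.23 ± 0.47 (SD, n = 4) in knockout and -1.31 ± 0.17 (SD, n = 5) in wild-type, 5.80-fold higher in knockout. Without knockout 3, its highest array, the difference was 2.30, beside 2.54 with all arrays.

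Armc5, an armadillo repeat gene whose human counterpart is known from inherited adrenal overgrowth, was slightly higher in knockout. It read 0.06, -0.15, 0.10 and 0.14 on knockout 1 to 4, against -0.34, -0.34, -0.44, -0.54 and -0.43 on wild-type 1 to 5. The groups did not overlap, and the difference was 0.46 (95% interval 0.24 to 0.68), or 1.37-fold. By size it ranked 2346 of 19087, so that its place rests on a narrow spread within each genotype, 0.13 in knockout and 0.08 in wild-type (SD).

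Kat8 and Bckdk, the measured members nearest to Pycard, overlapped between the genotypes. Kat8 encodes the acetyltransferase MOF, which acetylates lysine 16 of histone H4. It read -0.14, -0.20, 0.01 and -0.39 on knockout 1 to 4, against -0.20, -0.13, 0.15, 0.04 and -0.30 on wild-type 1 to 5. Its difference was -0.09 (95% interval -0.39 to 0.20).

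Bckdk encodes the kinase that switches off the branched-chain ketoacid dehydrogenase. It read 0.09, -0.09, 0.50 and 0.07 on knockout 1 to 4, against 0.34, -0.04, 0.05, -0.48 and 0.05 on wild-type 1 to 5. Its difference was 0.16 (95% interval -0.26 to 0.58). The Bckdk interval takes in the Armc5 difference of 0.46, so equal levels are not shown. Ordered by difference, the members ran Pycard, Slx1b, Kat8, Bckdk, Armc5 and Gdpd3, with Kat8 and Bckdk not apart beyond their spread.

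Array titles end in a letter for 3 knockout and 3 wild-type arrays and in a number for 1 knockout and 2 wild-type arrays. What the title style stands for is not given, but number-titled arrays held 6.52% to 7.35% exact zeros, and letter-titled ones 1.07% to 3.49%. Within the letter-titled arrays the differences were -3.18 for Pycard, -2.46 for Slx1b, 2.52 for Gdpd3 and 0.38 for Armc5. Within the number-titled arrays, with knockout 4 alone on its side, they were -4.13, -2.34, 2.46 and 0.63 for the same genes. Where groups do not overlap, no subset of arrays can turn the sign, so these values describe sizes alone.

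Over all values the comparison of knockout with wild-type called 5 of 30654 (0.0163%) by limma with an adjusted p under 0.05, and 5 of 45220 (0.0111%) with features taken singly. Pycard, Slx1b and Gdpd3 are 3 of them, which the choice of members makes uninformative. The other 2 are unnamed features 3412 and 21783, singled out after their values were seen. With replicate number as a block limma called 0. That fit estimates more terms, and wild-type 5, with no knockout array of its number, adds nothing to the difference. Without the block 1656 of 30654 values had an unadjusted limma p under 0.05, close to the share this threshold passes where nothing differs. Leaving out 1 array at a time gave between 1 and 6 calls.

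To place the members in their surroundings, the 100 measured named genes on each side of Pycard were taken by RefSeq gene order. Of these 200 genes, 9 (4.5%) had knockout and wild-type arrays that did not overlap, 6 higher and 3 lower in knockout. Over all named genes the share was 2.14%. The 9 include the members Slx1b, Gdpd3 and Armc5, so the count is not independent of the choice of members. It was 3 of the 50 genes within 25 places of Pycard, 1 of the 50 at 26 to 50 places and 5 of the 100 beyond. The median difference in the window was -0.005, beside -0.003 over all named genes. The count is sensitive to single arrays. Without knockout 3 it was 33 of 200 and the share of all named genes 9.22%, and without knockout 4 it was 14 and that share 3.79%. It was 17 without wild-type 1, with a share of 4.39%, and 17 without wild-type 3, with a share of 4.10%.

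Near Pycard, besides Armc5, these genes were Rgs10 and Tial1, at 8 and 9 measured genes from it. Rgs10, a regulator of G protein signalling, read 0.57, 0.32, 0.58 and 0.40 on knockout 1 to 4, against -0.08, 0.15, 0.14, -0.03 and 0.02 on wild-type 1 to 5. Its difference was 0.43 in its 1 feature. Tial1, an RNA-binding protein of stress granules, differed by -0.31 over its 2 features, but only feature 8020 (-0.59) had groups that did not overlap, and feature 11132 was at -0.03. Farther out stood Nkx6-2, an oligodendrocyte transcription factor (0.57), the T-cell adaptor gene Lat (0.68), the water channel gene Aqp8 (0.34) and the splicing factor gene Cd2bp2 (-0.23). Lat owed much of its difference to wild-type 4 and 5, which read -0.96 and -1.26 against -0.11 to -0.02 on the other wild-type arrays. Of these 9 genes only Slx1b and Gdpd3 differed by more than 1 on the log2 scale.

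**Figure D2:**
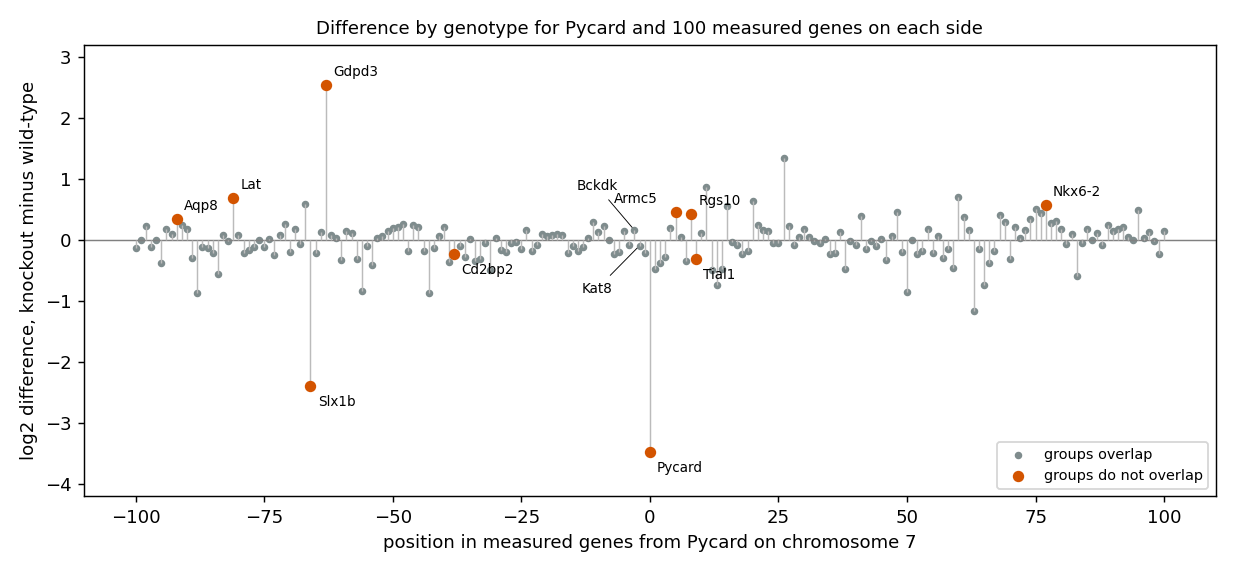
Log2 difference, knockout minus wild-type (vertical axis), for Pycard and 100 measured named genes on each side in chromosome order (horizontal axis, position in measured genes); large points are genes whose groups do not overlap. Pycard at -3.47, Slx1b at -2.39 and Gdpd3 at 2.54 stand beyond the rest, and Kat8 and Bckdk, within 3 places of Pycard, lie near 0.

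The 2 measured genes nearest to Pycard on the side away from Kat8 are Itgam and Itgax, which encode the integrin chains CD11b and CD11c of microglia and other myeloid cells. Itgam averaged -0.16 ± 0.37 (SD, n = 4) in knockout and 0.31 ± 0.38 (SD, n = 5) in wild-type. Itgax averaged -0.23 ± 0.39 (SD, n = 4) in knockout and 0.15 ± 0.31 (SD, n = 5) in wild-type. Both pairs of groups overlapped, and the Itgax features disagreed, at -0.77 and 0.02. Prss8, a serine protease gene on the Kat8 side, averaged -0.03 ± 0.08 in knockout and 0.18 ± 0.37 in wild-type (SD, n = 4 and n = 5), also with overlap.

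Against the day 16 pool the mean of all 9 arrays was tested, since in this design it is uncorrelated with the difference between genotypes. Over all values 1348 of 30654 (4.4%) passed with an adjusted p under 0.05 and a mean 1 or more above or below the pool. None of the 5 measured members besides Pycard did so; at the adjusted p alone, which 31.7% of values passed, limma called 2. Armc5 averaged -0.22 (SE 0.05, limma adjusted p = 0.00974) and was below the pool on 6 of 9 arrays, including all 5 wild-type arrays. With features of low SD left out its limma adjusted p was 0.0922. Its mean was 0.04 in knockout and -0.42 in wild-type, so the mean of all arrays does not describe the knockout level. Kat8 averaged -0.13 (SE 0.06, limma adjusted p = 0.158) and was below the pool on 6 of 9 arrays. Bckdk averaged 0.06 (SE 0.09, limma adjusted p = 0.678) and was above it on 6 of 9. For Slx1b (-0.52, limma adjusted p = 0.000375) and Gdpd3 (-0.18, limma adjusted p = 0.233) this mean likewise lies between genotypes on opposite sides of the pool and describes neither. Age, SmoA1, pooling and dye all separate the samples from the pool and cannot be told apart.

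ASC acts through partners, and 24 of 27 listed genes of the inflammasome pathway were measured. None was called in knockout against wild-type by limma in either direction (lowest adjusted p = 0.917), beside 0.0163% of all values. With so few calls anywhere, this does not show equal levels. An unadjusted limma p under 0.05 was reached by 3 of the 24, beside 1656 of all 30654 values. Of the 24, 16 were lower and 8 higher in knockout, with a median difference of -0.23, beside -0.003 over all named genes. None had groups that did not overlap, beside 2.14% of all named genes.

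The sensor genes Nlrp3 (0.15), Nlrc4 (0.47) and Aim2 (-0.55) differed within their spread, with 95% intervals of -0.29 to 0.59, -0.61 to 1.55 and -2.45 to 1.35. Nlrp6, another sensor gene, differed by 0.64 (95% interval 0.16 to 1.12, limma adjusted p = 0.917), and its groups overlapped. Casp1, the protease recruited by ASC, averaged 0.76 ± 0.09 (SD, n = 4) in knockout and 0.96 ± 0.41 (SD, n = 5) in wild-type. Its substrates differed by -0.08 for Il1b and 0.04 for Il18. The widest differences were -0.87 for Casp4, the caspase of the noncanonical pathway, and -0.75 for Il1a. Il1a read 3.54 on wild-type 5 and between -0.14 and 0.62 on the other wild-type arrays, against -0.13 to 0.49 on knockout arrays.

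**Figure D3:**
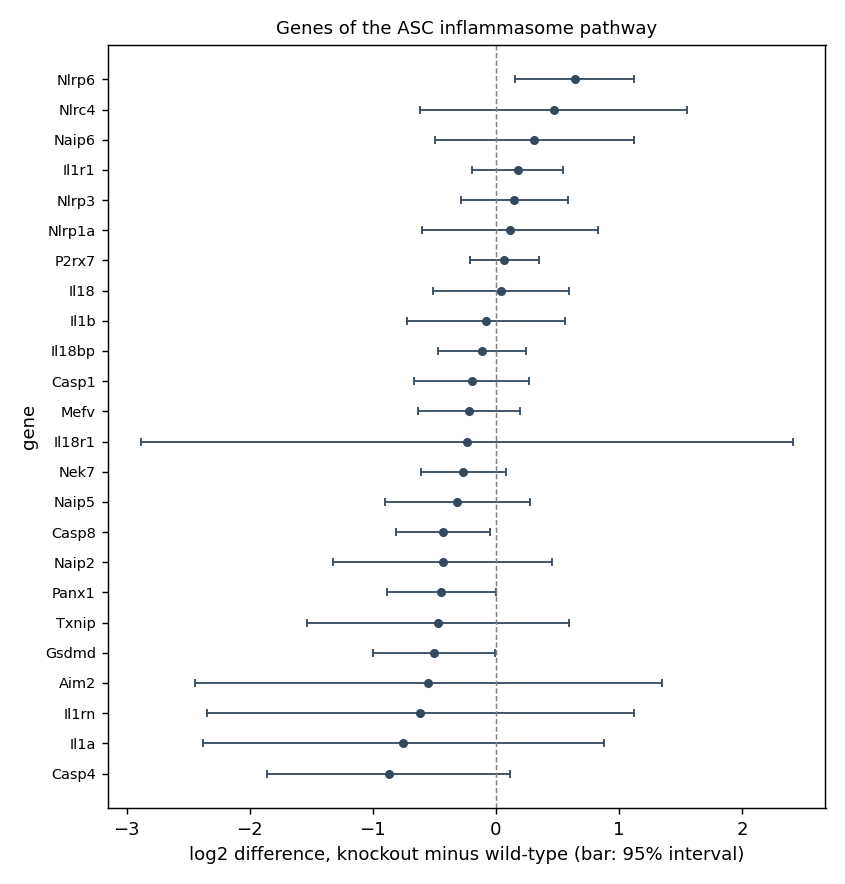
Log2 difference, knockout minus wild-type (horizontal axis), with its 95% interval for the 24 measured genes of the inflammasome pathway other than Pycard (vertical axis). The differences run from -0.87 for Casp4 to 0.64 for Nlrp6, and no gene passed the adjusted threshold.

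Microglia markers were lower in knockout on average, without passing the test, and in whole tissue fewer cells of a type cannot be told apart from less RNA per cell. All 13 measured markers of the 16 listed for microglia and macrophages were lower in knockout. By limma none of them was called (lowest adjusted p = 0.917), and 2 had an unadjusted p under 0.05. Their median difference was -0.53, with Lyz2, the lysozyme gene, at -0.84 and Aif1, which encodes the protein IBA1, at -0.74. The mean of the 13 markers ran from -0.25 to 0.95 over knockout arrays and from 0.64 to 1.14 over wild-type arrays. Knockout 3 (0.95) stood among the wild-type values in these markers, with Pycard at -1.48. Knockout 4 (0.62) stood just below them, with Pycard at -2.83. The ratios carry no absolute level, so none of the markers can be said to be at 0.

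**Figure D4:**
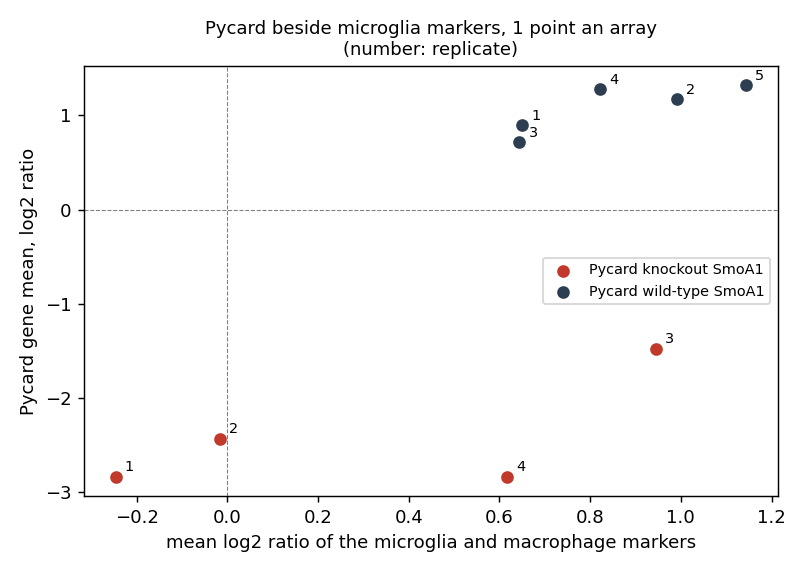
Pycard gene mean (vertical axis, log2 ratio) against the mean log2 ratio of 13 microglia and macrophage markers (horizontal axis), 1 point an array, labelled by replicate. The 4 knockout arrays lie between -2.83 and -1.48 in Pycard. Their marker means are -0.25 and -0.02 on knockout 1 and 2, and 0.95 and 0.62 on knockout 3 and 4. Knockout 3 is the highest knockout array in both measures, and a relation between them was not tested.

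Markers of other cells were read in the same way, and limma called none of any list, beside 0.0163% of all values. An unadjusted limma p under 0.05 was reached by 6 oligodendrocyte, 5 granule neuron progenitor, 3 Purkinje cell, 2 Bergmann glia and astrocyte and 1 neutrophil markers. Over all values 1656 of 30654 reached it. Groups did not overlap for 2 oligodendrocyte, 1 progenitor and 1 neutrophil markers, beside 2.14% of all named genes. All 8 granule neuron progenitor markers were lower in knockout (median -0.70). The 6 oligodendrocyte and 5 Purkinje cell markers were all higher (medians 0.45 and 0.50). Neutrophil markers were lower in 8 of 9 (median -0.30). The 9 skeletal muscle markers, listed because Trim72 is a muscle membrane repair gene, had a median of -0.03. Granule neuron markers were higher in 6 of 7 (median 0.18) and Bergmann glia and astrocyte markers in 4 of 6 (median 0.22). The part of these shifts in the values of the members was not tested.

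Partners of the other members gave no call by limma either, beside 0.0163% of all values. Of 12 measured nucleases and partners of SLX1, 10 were lower in knockout, the widest being Eme1 (-1.22) and Gen1 (-0.59), which also act on branched DNA. Slx4, the scaffold that holds SLX1, was at -0.05. Eme1 was lowest on knockout 1 at 0.46 and reached 2.47 on knockout 3, against 1.81 to 3.01 on wild-type arrays. The 7 genes listed for Gdpd3 split into 4 higher and 3 lower, with Gde1 (0.29) and Gdpd4 (-0.24) widest.

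Of 14 genes of branched-chain amino acid breakdown, 8 were higher and 6 lower, led by the transaminase Bcat1 (-0.37) and the dehydrogenase Ivd (0.24). Ivd was the 1 gene of these 14 whose groups did not overlap, beside 2.14% of all named genes. Ppm1k, the phosphatase that opposes BCKDK, was at 0.11. Of 11 measured subunits of KAT8 complexes, 7 were lower, with Hcfc1 (-0.33) and Wdr5 (-0.33) widest. The 10 measured relatives and partners of Tgfb1i1, a LIM adaptor of focal adhesions, had a median of -0.02, with Lims1 (-0.28) and Csk (-0.23) widest. Each of these 5 lists had a lowest adjusted p of 0.917.

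The genes whose values across the 9 arrays were most like those of Pycard were Slx1b (Pearson r 0.96), Raver1 (0.95), Igf2bp3 (0.94), Cenpv (0.94) and Tbc1d31 (0.94). Most opposite were Dbndd2 (-0.97), Gpr37l1 (-0.96), Tmem125 (-0.95), Cacnb2 (-0.95) and Jdp2 (-0.95). All 9 arrays fall into 2 clusters by genotype for Pycard, so these values mainly rank how cleanly a gene follows the same split. Among the members Gdpd3 was at -0.91, Armc5 at -0.91, Kat8 at 0.34 and Bckdk at -0.25. The members were chosen with this split known, so nothing is read from their values. Slx1b enters by the mean of its features, which describes neither of them. Size was no part of this likeness. Raver1 differed by -0.13 between the genotypes and Slx1b by -2.39.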

How the data were processed

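Per the labels, 9 samples of SmoA1 cerebellum RNA were hybridised in Cy5 against 1 common pool in Cy3. The deposited values are log2 ratios, 1 per feature and array, with no missing cell. The labels name no base. Base 2 was assumed, because entries on each array go beyond 4.82 in size, out of reach for log10 ratios of such scanner signals, and the natural log was not tested. The submitters' processing notes name Agilent Feature Extraction, with no version or settings. The direction follows the dyes per the labels, and no array has dyes exchanged. Array medians lay between 0 and 0.013, and SDs over features between 0.552 and 1.12. Without channel intensities, dim and saturated spots could not be set apart. The number of arrays limits the precision.

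Features with 1 symbol in the platform annotation (33653) were averaged per gene, and the others (11511 with none, 56 with several) kept singly, which gave 30654 values. RefSeq left all symbols unchanged and gave gene order only. limma 3.58.1 in R 4.3.3 (lmFit, eBayes, two-sided, Benjamini-Hochberg over all values, threshold 0.05) was fitted to all 9 arrays with genotype centred. It was also run on simulated data with noise independent between arrays and not at the spread of these data, so its power here was not measured. Intervals are at 95%, from the same fit. Named genes are the 9 members, the window genes whose groups do not overlap (close to Pycard all, farther out the 6 widest), the 2 widest differences in each list, a fixed inflammasome set and the 5 genes most like and most opposite to Pycard. Slx4, Ppm1k, Nlrp6, Gsdmd, Itgam, Itgax, Prss8 and the unnamed features were added after their values were seen. Predicted transcripts were not named. Members and lists were chosen with earlier results of these data known.

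Replicate numbers 1 to 4 occur in both genotypes. After subtraction of group means, the knockout and wild-type arrays of 1 number correlated at 0.244, 0.247, 0.446 and 0.304. Knockout 2 correlated most with wild-type 1, and knockout 4 and wild-type 4 are also both number-titled. Whether the numbers pair samples is not in the labels, so a replicate block was fitted as an alternative only. The SEs, intervals and p-values given are from fits without this block. Alternatives were other scalings, single features, blocks, title styles, each array left out, zeros as missing, another prior, an SD filter and other thresholds and windows.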

Additional observations from a re-analysis of the deposited data

Results flagged for a closer look

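Gdpd3 read 1.93 on knockout 3, far from the other 3 knockout arrays, which lay between 0.96 and 1.02. The gap to its nearest neighbour was 0.935 of the whole range of the group, above Dixon's 95% critical value of 0.829 for 4 samples. It was the 1 value so marked among 20 groups of values examined, and chance marks about 1 in 20. On the same array Pycard feature 33618 read -0.05, the highest of the 4 knockout values.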

How the results depend on the processing

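The difference of Bckdk kept its sign in all 18 alternatives, and that of Kat8 in all 17 that gave a value. With 1 array left out at a time the differences ran from -3.78 to -3.33 for Pycard, -2.44 to -2.32 for Slx1b, 2.30 to 2.63 for Gdpd3, 0.42 to 0.52 for Armc5, -0.16 to -0.02 for Kat8 and 0.04 to 0.25 for Bckdk. Within number-titled arrays alone Pycard was at -4.13 and Armc5 at 0.63. Slx1b was at -2.62 after quantile normalization and at -4.71 with features of low SD left out, which removes its other feature. With the replicate block the differences were -3.41 for Pycard, -2.44 for Slx1b, 2.49 for Gdpd3 and 0.45 for Armc5.

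The number of values called between genotypes was 0 with the replicate block, 0 in letter-titled arrays alone (fewer samples) and 3 after quantile normalization. It ran from 1 to 6 with 1 array left out. The window count of 9 ran from 9 to 33 with 1 array left out, and was 23 in letter-titled arrays alone, where 8.48% of all named genes had groups that did not overlap. It was 3 of 50 and 4 of 100 in windows of 25 and 50 genes on each side. Against the pool, 9722 values passed with no minimum mean. Leaving out 1 array gave 1182 to 1433. Members other than Pycard called against the pool numbered 2 with no minimum mean (31.7% of all values), 1 with single features (4.41% of all features) and 1 with the SD filter (5.61% of the values kept). They numbered 2 in knockout arrays alone (1.98% of all values) and 1 in wild-type arrays alone (5.51%). However, 1 genotype alone carries the contrast known when the members were chosen, so nothing is read from these counts. Pathway list calls stayed at 0 throughout, also with 1 array left out. The window was not counted for the blocks or the other prior, which do not change the values. With no intensities, how far low ratios are limited by background was not tested.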
